A study of Mus musculus with 6 samples.

Results

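The genes described here are 9 genes of the excitatory neuron lineage of the cerebral cortex: Neurog2, Eomes, Emx1, Neurod1, Neurod2, Neurod6, Bhlhe22, Tbr1 and Slc17a7. They were chosen by gene name from a table of 29659 genes, and all 9 were found once each. RNA had been sequenced from pieces dissected as lateral ganglionic eminence (LGE, the embryonic origin of striatal projection neurons) of C57BL/6 mice at embryonic day 16.5. The 3 control libraries came from mice with the Dlx5/6-Cre transgene alone (Dlx5/6-Cre) and the 3 Zfhx3-CKO libraries from mice that carried the same transgene and floxed Zfhx3 (Dlx5/6-Cre; Zfhx3F/F), so all 6 libraries share Cre. Dlx5/6-Cre drives Cre recombinase in GABAergic cells of the ganglionic eminences, and the labels do not say whether a library is 1 embryo or a pool. The p-values are therefore set by differences among libraries whose biological independence is not stated.

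Excitatory neurons of the cortex arise from the pallium, the dorsal part of the telencephalon, which lies next to the LGE. Emx1 marks the radial glia of the pallium, Neurog2 starts neuronal differentiation in them, and Eomes (Tbr2) marks the intermediate progenitors that follow. Neurod1, Neurod2, Neurod6, Bhlhe22 and Tbr1 are then switched on as the neurons differentiate, and Slc17a7 (VGLUT1) loads glutamate into their synaptic vesicles. Cells of the LGE instead make GABA and express Dlx and Gsx homeobox genes. In bulk RNA, fewer cells of a type and less RNA per cell cannot be told apart.

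The libraries held 15938590 to 20311799 counts. Zfhx3 stood at 134, 135 and 101 CPM (counts per 1000000 of the library total times its TMM scaling factor) in control libraries 1, 2 and 3 against 98.7, 87.3 and 99.3 CPM in the Zfhx3-CKO group, with no overlap (log2 fold change -0.37, edgeR adjusted p 0.091); the counts cover the whole gene, and so check the labels only in part. Xist had 5 to 9 counts per control and 55947 to 59631 per Zfhx3-CKO library, and 4 Y-linked genes together had 4939 to 5451 and 5 to 8, so sex and genotype cannot be told apart. All 9 excitatory lineage genes are autosomal. The GABAergic identity of the tissue was checked with 10 subpallial genes, among them Gad1, Gad2, Slc32a1, Dlx1, Dlx2, Dlx5 and Dlx6, which summed to 2420 to 2637 CPM in the control and 2412 to 2875 CPM in the Zfhx3-CKO libraries. The 9 excitatory lineage genes summed to 42.2, 45.5 and 46.6 CPM in the control libraries and to 173, 44.5 and 249 CPM in Zfhx3-CKO libraries 1, 2 and 3. Zfhx3-CKO libraries 1 and 3 thus stood apart from the other 4 libraries on this sum, and Zfhx3-CKO library 2 lay between the control libraries.

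The pallial progenitor factors were measured first. Neurog2, a basic helix-loop-helix (bHLH) factor (ENSMUSG00000027967, chromosome 3, 127633135 to 127635631, plus strand, GRCm38), was at 4.83, 5.10 and 11.1 CPM in control libraries 1, 2 and 3, against 28.3, 7.03 and 17.7 CPM in libraries 1, 2 and 3 of the Zfhx3-CKO group. Zfhx3-CKO library 2 fell inside the control range, so the groups overlapped, and control library 3 was more than 2-fold above the other controls (2.29 times library 1, 95% interval 1.75 to 3.01; 2.17 times library 2, 1.66 to 2.85). The group means were 7.0 ± 3.52 and 17.7 ± 10.7 CPM (SD, n = 3 each), and the log2 fold change of 1.34 (SE 0.49) had an edgeR quasi-likelihood adjusted p of 0.133. Intervals given for ratios of 2 libraries are exact Clopper-Pearson intervals, cover counting error only and compare libraries, not genotypes.

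Eomes, a T-box factor (ENSMUSG00000032446, chromosome 9, 118478212 to 118486132, plus strand), was at 6.21, 6.49 and 9.63 CPM in the controls, against 30.2, 8.14 and 17.0 CPM in the Zfhx3-CKO group. Its order over the 6 libraries was that of Neurog2: Zfhx3-CKO library 1 was highest, then Zfhx3-CKO library 3, then control library 3, and Zfhx3-CKO library 2 lay within the controls. The group means were 7.44 ± 1.90 and 18.5 ± 11.1 CPM (SD, n = 3 each; log2 fold change 1.31, SE 0.42, edgeR adjusted p 0.0943). A predicted antisense gene, Gm33460, overlaps 2.84% of the exonic bases of Eomes, held 1 to 5 counts per library, and cannot be told apart from it in a library that does not mark strand.

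Emx1, the homeobox gene that marks pallial radial glia (ENSMUSG00000033726, chromosome 6, 85187438 to 85204462, plus strand), rested on few counts: 6, 10 and 16 in the controls and 48, 15 and 39 in the Zfhx3-CKO libraries. These are 0.358, 0.630 and 0.957 CPM against 2.35, 0.793 and 2.0 CPM. Libraries 1 and 3 of the Zfhx3-CKO group were again the highest, and library 2 lay within the controls. The log2 fold change of 1.40 (SE 0.49) had an edgeR adjusted p of 0.118.

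Among the neuronal bHLH factors, Neurod2 (ENSMUSG00000038255, chromosome 11, 98325415 to 98329648, minus strand), a factor of differentiating cortical projection neurons, was at 8.0, 8.57 and 8.37 CPM in the controls, against 39.0, 9.68 and 69.4 CPM in the Zfhx3-CKO group. The groups did not overlap, but Zfhx3-CKO library 2 exceeded the control mean by only 1.16 times, where libraries 1 and 3 exceeded it by 4.69 and 8.35 times. The log2 fold change was 2.24 (SE 0.57) with an edgeR adjusted p of 0.0519, just outside the threshold of 0.05. Neurod6 (ENSMUSG00000037984, chromosome 6, 55677822 to 55681263, minus strand), which is expressed in the same postmitotic neurons, was at 7.16, 6.11 and 5.56 CPM against 26.9, 6.29 and 46.2 CPM. Library 2 lay within the controls, and libraries 1 and 3 were 4.28 and 7.36 times the control mean (log2 fold change 2.08, SE 0.58, edgeR adjusted p 0.0658).

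Neurod1 (ENSMUSG00000034701, chromosome 2, 79452521 to 79456751, minus strand), which acts as new neurons leave the progenitor state, was at 1.25, 1.51 and 1.55 CPM in the controls, against 2.99, 1.53 and 6.71 CPM in the Zfhx3-CKO group. Zfhx3-CKO library 2 was again within the controls, and the log2 fold change of 1.38 (SE 0.50) had an edgeR adjusted p of 0.128. Its exons overlap Cerkl on the same strand (7.37% of exonic bases), which held at most 3 counts in any library. The predicted antisense gene Gm26755 overlaps a further 5.64%, and no value of it is given here.

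Bhlhe22 (ENSMUSG00000025128, chromosome 3, 18054174 to 18057517, plus strand), a bHLH repressor of cortical projection neurons, was the 1 gene of the 9 that passed. It was at 1.31, 1.07 and 0.658 CPM in the controls, against 6.66, 1.90 and 14.5 CPM in the Zfhx3-CKO group, with no overlap. Its mean rose from 1.01 ± 0.331 to 7.70 ± 6.38 CPM (SD over 3 libraries in each group), and the log2 fold change was 2.92 (SE 0.69, edgeR adjusted p 0.0401). Library 2 was 1.88 times the control mean and libraries 1 and 3 were 6.57 and 14.3 times, so that the SD in the Zfhx3-CKO group was nearly as large as the mean. The call was lost without any 1 of the 3 control libraries or without Zfhx3-CKO library 1 (adjusted p 0.0963 to 0.147).

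Tbr1 (ENSMUSG00000035033, chromosome 2, 61802930 to 61814114, plus strand), the T-box factor of deep-layer cortical neurons, was at 12.6, 15.7 and 8.67 CPM in the controls, against 36.2, 8.83 and 72.8 CPM in the Zfhx3-CKO group. Library 2 stood close to the lowest control, at 0.715 times the control mean, while libraries 1 and 3 stood at 2.93 and 5.90 times. The log2 fold change of 1.67 (SE 0.61) had an edgeR adjusted p of 0.132. Slc17a7 (ENSMUSG00000070570, chromosome 7, 45163949 to 45176142, plus strand) held only 7, 4 and 2 counts in the controls and 10, 5 and 40 in the Zfhx3-CKO libraries. It did not pass the filter on low counts and was not tested, and only Zfhx3-CKO library 3, at 2.05 CPM, stood apart from the others (0.12 to 0.489 CPM).

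The promoter windows of these genes were read from RefSeq (GRCm38.p6), as the 250 bases before the annotated start, for the 8 genes with an entry, all but Bhlhe22. They are shown for Neurod2 and Neurod6, which lay nearest to the median pattern of the 8 tested genes over the 6 libraries among the 7 that were compared, and for Neurog2, which had another order of libraries; capitals mark E-boxes (CANNTG on either strand), the letters that bHLH factors bind.
Neurod2, chr11:98329646-98329895, minus strand: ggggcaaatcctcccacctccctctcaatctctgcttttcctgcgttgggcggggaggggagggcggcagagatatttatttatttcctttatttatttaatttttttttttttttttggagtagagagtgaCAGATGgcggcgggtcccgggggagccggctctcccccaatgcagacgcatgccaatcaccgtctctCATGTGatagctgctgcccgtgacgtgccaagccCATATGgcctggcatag
Neurod6, chr6:55681264-55681513, minus strand: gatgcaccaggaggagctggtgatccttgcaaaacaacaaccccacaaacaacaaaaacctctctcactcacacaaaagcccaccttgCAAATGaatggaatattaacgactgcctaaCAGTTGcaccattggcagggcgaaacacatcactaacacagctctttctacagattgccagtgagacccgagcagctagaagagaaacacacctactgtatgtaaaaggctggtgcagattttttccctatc
Neurog2, chr3:127632886-127633135, plus strand: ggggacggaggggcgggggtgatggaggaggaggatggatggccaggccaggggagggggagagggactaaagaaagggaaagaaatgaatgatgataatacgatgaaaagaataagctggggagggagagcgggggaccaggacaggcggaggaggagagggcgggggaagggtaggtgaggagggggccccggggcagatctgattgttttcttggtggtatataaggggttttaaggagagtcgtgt
The Neurod2 window holds 3 E-boxes, at 118, 51 and 17 bases before the start, the first of them CAGATG, and the Neurod6 window holds 2, at 162 and 132 bases. The Neurog2 window holds none. Of the 8 windows 6 held at least 1 E-box (all but Neurog2 and Eomes), as did 66.2% of all 32851 windows of the same length, and 1 of 8 held CAGATG or its reverse complement CATCTG, as did 14.4%. The homeodomain letters TAATTA occurred only in the Tbr1 window, where 2 copies lay 33 and 18 bases before the start, against 4.84% of all windows. The T-box letters GGTGTGA (reverse complement TCACACC) were in none of the 8 and in 3.33% of all windows. The Tbr1 and Emx1 windows (61804203 to 61804452 and 85187681 to 85187930) lie wholly inside the gene spans given above, and the Neurod1 window (79456637 to 79456886) lies partly inside. The Neurod2 window reaches a few bases into its gene span, and the Neurog2 window ends on the base where its gene span starts. The RefSeq starts of Eomes and Slc17a7 were not found in a transcript of GENCODE, another gene annotation. A match is a run of letters, not a binding site.

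**Figure D1:**
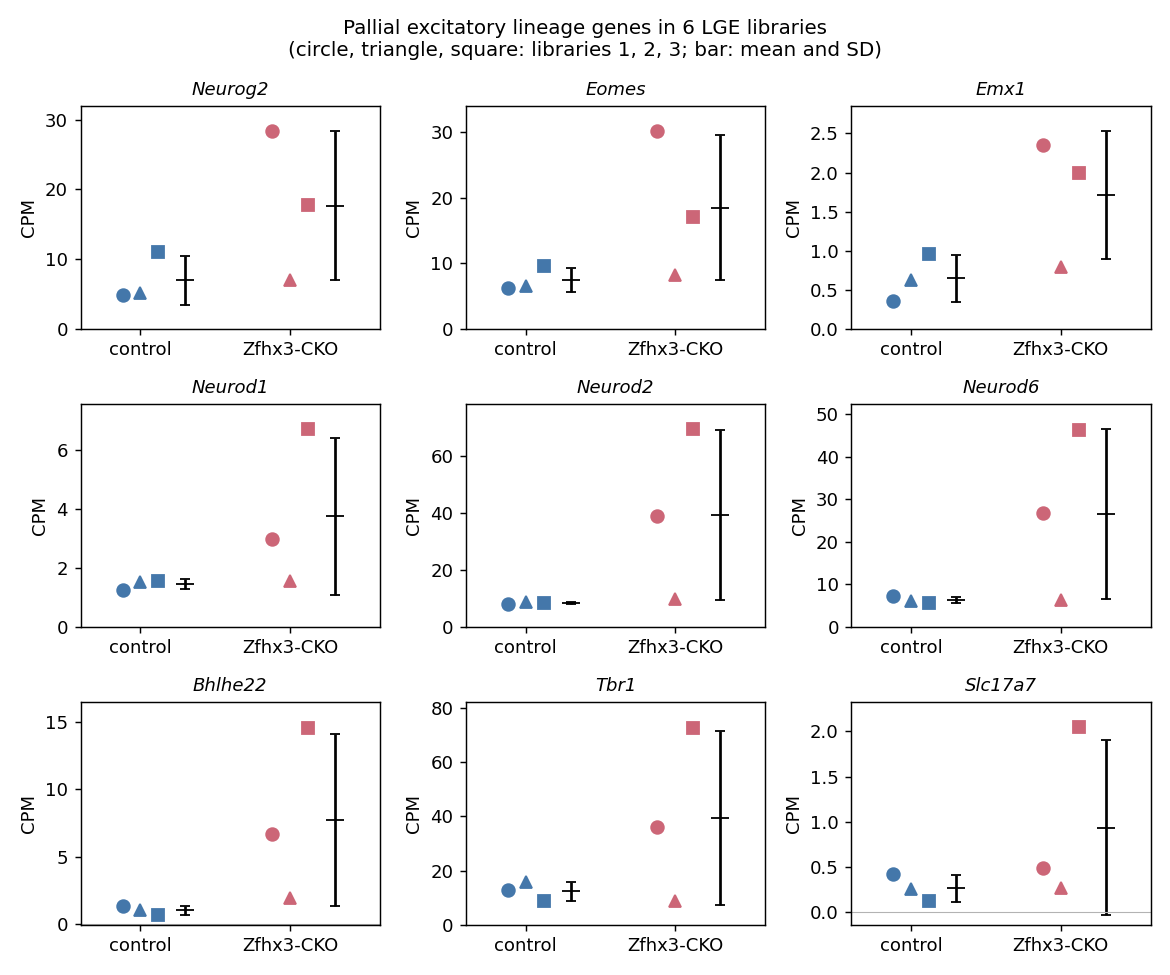
CPM (linear axes) of the 9 genes in each library; circles, triangles and squares are libraries 1, 2 and 3, blue is control and red Zfhx3-CKO, and the black bars are the mean and SD over 3 libraries. Zfhx3-CKO libraries 1 and 3 lie above every control in each panel, while library 2 lies within the control range in 7 of the 9.

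On the per-length scale of the deposited FPKM, the 9 genes kept low levels in the control tissue. The control means ran from Neurog2 (3.15 ± 1.61 FPKM), Neurod6 (2.92 ± 0.371), Neurod2 (2.65 ± 0.0908), Tbr1 (2.25 ± 0.635) and Eomes (1.80 ± 0.469; SD, n = 3 each) down to Neurod1 (0.528 ± 0.0609), Bhlhe22 (0.303 ± 0.0981), Emx1 (0.298 ± 0.139) and Slc17a7 (0.0488 ± 0.0276). Neighbours among the first 5 overlapped in range, as did Bhlhe22 and Emx1, whereas Eomes and Neurod1, Neurod1 and Bhlhe22, and Emx1 and Slc17a7 did not. In the Zfhx3-CKO group Neurod2 had the highest mean (12.5 ± 9.42 FPKM) and Neurod6 the next (12.3 ± 9.21), and every neighbour in the order overlapped.

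Over the 6 libraries, 1 of the 8 tested genes passed as higher and none as lower, where 3.87% of all 16551 tested genes passed as higher and 3.49% as lower. All 8 had an unadjusted p under 0.05, where 13.5% of all genes were higher at that level, and the median log2 fold change of the 8 was 1.53, where that of all tested genes was 0.00. With 3 libraries against 3, the exact two-sided permutation test cannot go below p = 0.1. Groups did not overlap for 2 of the 8 (Neurod2 and Bhlhe22), where 15.5% of all tested genes lay wholly higher in the Zfhx3-CKO group. DESeq2 called Bhlhe22 and Neurod2 (adjusted p 0.00802 and 0.0283), 2 of 9 genes against 5.75% of all genes. With no filter on low counts edgeR called 7 of the 9, all but Emx1 and Slc17a7 (adjusted p 0.0532 and 0.119), against 3.62% of all genes.

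The fits with libraries left out were read as a description, since library 2 and libraries 1 and 3 were set apart with their values for these genes known, and neither fit is a test of that split. Without Zfhx3-CKO library 2, all 8 tested genes were higher, with log2 fold changes of 1.67 to 3.38 and edgeR adjusted p of 0.000259 to 0.0272, where 5.11% of all genes were higher. Without libraries 1 and 3, none of the 8 passed in edgeR and none had an unadjusted p under 0.05, where 4.97% of all genes were higher; the lone Zfhx3-CKO library was then assumed to vary like the controls. In that fit the log2 fold changes ran from -0.48 (Tbr1) to 0.91 (Bhlhe22), and those of Neurog2 and Neurod6 were 0.01 and 0.00. Neurod2 came to 0.22 (SE 0.18) and Eomes to 0.13 (SE 0.26). Without control library 1, 2 or 3, or without Zfhx3-CKO library 1, none passed, although 3, 5, 6 and 5 of the 8 had an unadjusted p under 0.05; of all genes 0.927%, 0.913%, 2.43% and 1.32% were higher in those fits. Without Zfhx3-CKO library 3 only Bhlhe22 passed, against 6.47% of all genes. Bhlhe22 alone also passed with RLE factors and with library totals only, against 3.93% and 3.75%, and none passed with the replicate block, against 1.06%. The strict filter and limma-trend on FPKM each kept 5 of the 8 and left out Bhlhe22, which could not be called there. None of the 5 passed, against 4.77% and 3.33% of all genes.

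**Figure D2:**
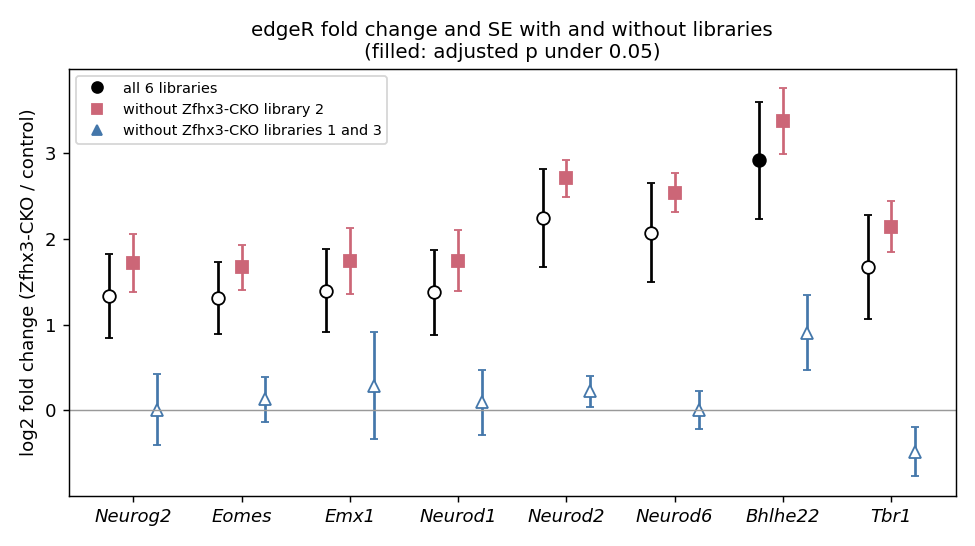
Log2 fold change of Zfhx3-CKO over control for the 8 tested genes, with its SE, from edgeR with all 6 libraries, with library 2 of the Zfhx3-CKO group left out and with its libraries 1 and 3 left out; filled symbols have an adjusted p under 0.05. All 8 genes are filled without library 2 (1.67 to 3.38), 1 is filled with all libraries, and none without libraries 1 and 3 (-0.48 to 0.91).

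All 8 tested genes stood at least 2-fold above the control mean in both Zfhx3-CKO libraries 1 and 3, as 1.64% of all tested genes did. For 7 of them, all but Bhlhe22, library 2 also lay within 1.5-fold of the control mean, which held for 0.405% of all tested genes. These limits were chosen after the values were seen and are a description only.

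The 2 high libraries differed from each other in which of the 9 genes was higher. They also differed beyond counting error over all genes (chi-square per gene 15.0 over 16685 genes). The intervals below therefore do not by themselves set these genes apart. The share of all genes whose interval leaves out 1 was not counted. Neurog2 and Eomes, the progenitor factors, were lower in Zfhx3-CKO library 3 than in library 1, at 0.625 times (95% interval 0.546 to 0.715) and 0.565 times (0.493 to 0.646). The 6 genes of the neuronal phase were higher in library 3: Neurod6 by 1.72 times (1.55 to 1.92), Neurod2 by 1.78 times (1.63 to 1.95), Tbr1 by 2.01 times (1.84 to 2.20), Bhlhe22 by 2.18 times (1.77 to 2.70), Neurod1 by 2.25 times (1.65 to 3.10) and Slc17a7 by 4.18 times (2.06 to 9.38). Emx1 was at 0.850 times, with an interval of 0.542 to 1.32 that includes 1. The controls also differed among themselves in this balance. Tbr1 in control library 3 was at 0.685 times library 1 (0.551 to 0.851) and 0.551 times library 2 (0.446 to 0.678), while Eomes was at 1.55 times (1.20 to 2.0) and 1.48 times (1.15 to 1.92). Neurod2 did not differ beyond counting error between control library 3 and control libraries 1 (1.05 times, 0.820 to 1.34) and 2 (0.977 times, 0.766 to 1.25).

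**Figure D3:**
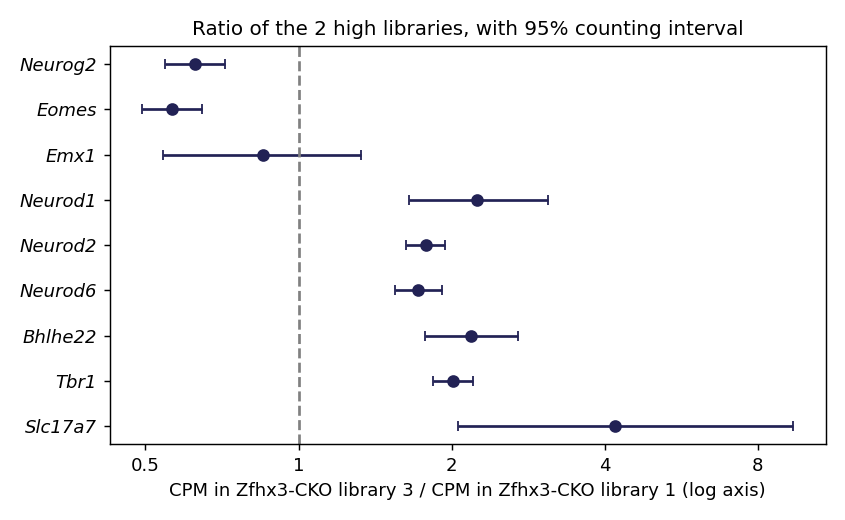
Ratio of the CPM in Zfhx3-CKO library 3 to that in Zfhx3-CKO library 1 (log axis) for the 9 genes; bars are exact 95% intervals for counting error and the dashed line is equality. Neurog2 and Eomes lie below 1, Emx1 spans it, and the other 6 genes lie above it, from 1.72 to 4.18.

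Other genes of the same lineage were read from lists grouped by role. Like the 9 genes, these lists were chosen with earlier results of these data known. Of 7 tested pallial progenitor genes, Lhx2, a LIM-homeodomain factor of cortical progenitors, rose from 50.9, 57.7 and 67.4 to 112, 121 and 83.9 CPM (log2 fold change 0.85, edgeR adjusted p 0.0139), and the other 6 did not pass. Unlike the 9 genes above, Lhx2 was highest in Zfhx3-CKO library 2. Emx2, the close relative of Emx1, was at 14.7, 12.8 and 17.7 CPM against 22.5, 25.4 and 17.5 CPM (edgeR adjusted p 0.0960), also highest in library 2. Dmrta2, a dorsal progenitor factor, followed the 9 genes more closely, at 1.67, 1.64 and 4.24 CPM against 7.88, 3.38 and 5.63 CPM (adjusted p 0.134), and Wnt7b had an adjusted p of 0.18. Wnt8b and Dmrt3, of the medial pallium, held at most 1 count in any library.

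Among 7 tested intermediate progenitor genes 2 rose. Sstr2, a somatostatin receptor gene, went from 15.1, 15.9 and 17.2 to 34.3, 19.8 and 31.2 CPM (log2 fold change 0.82, edgeR adjusted p 0.0403), highest in the libraries where Eomes was highest. Gadd45g rose from 51.1, 55.9 and 67.3 to 91.3, 112 and 75.0 CPM (log2 fold change 0.68, adjusted p 0.0365). Insm1, at 144, 144 and 205 against 252, 284 and 213 CPM, did not pass (adjusted p 0.0522). Gadd45g and Insm1 are also expressed in progenitors of the ganglionic eminences and were highest in Zfhx3-CKO library 2. Hes6 had an adjusted p of 0.145. Neurog1, the relative of Neurog2, was at 0.239 CPM or less in every library.

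Layer genes of the cortex gave mixed values. None of 12 deep-layer genes was higher and 2, Bcl11b and Foxp2, fell (log2 fold change -0.50 and -0.69, edgeR adjusted p 0.0323 and 0.0177), but both are also strongly expressed in striatal neurons, and Bcl11b stood at 608 to 996 CPM. Fezf2, the selector gene of subcortical projection neurons, was at 0.955, 0.693 and 1.20 CPM against 2.89, 0.952 and 4.2 CPM (adjusted p 0.112), and Hs3st4 at 5.61, 4.47 and 4.72 against 10.1, 5.92 and 13.7 CPM (adjusted p 0.0699). Both were lowest among the Zfhx3-CKO libraries in library 2. Of 10 upper-layer genes, Unc5d, a netrin receptor gene of multipolar migrating neurons, rose (log2 fold change 0.92, adjusted p 0.0239), from 26.3, 20.4 and 21.8 to 51.8, 31.3 and 46.7 CPM. Mdga1 was at 44.8, 40.7 and 43.5 against 68.0, 42.5 and 94.9 CPM (adjusted p 0.126), and the log2 fold changes of Plxnd1 and Rorb were -0.81 and -0.36 (adjusted p 0.0641 and 0.129).

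Of 7 genes of glutamatergic and pyramidal neurons, 1 rose: Nrgn, the calmodulin-binding protein neurogranin, from 3.88, 4.35 and 3.89 to 7.34, 7.72 and 7.78 CPM (log2 fold change 0.91, edgeR adjusted p 0.0107), at one level in all 3 Zfhx3-CKO libraries. Slc17a6 (VGLUT2), the vesicular glutamate transporter of young cortical and of thalamic neurons, was at 5.31, 4.09 and 4.78 against 15.7, 3.28 and 15.5 CPM (adjusted p 0.147), and Nrn1 at 1.97, 1.76 and 1.79 against 6.31, 1.80 and 6.19 CPM (adjusted p 0.0936). Both were about equally high in libraries 1 and 3, and in library 2 Slc17a6 lay below every control and Nrn1 within them.

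Of 5 tested genes of the lateral and ventral pallium, whose descendants settle beside the striatum in the claustrum and amygdala, none passed in edgeR and 3 had an unadjusted p under 0.05. DESeq2 gave a p-value to 7 genes of that list and called 2 higher (Nr4a2 and Ntng2), against 5.75% of all genes. Nr4a2, a nuclear receptor gene of the claustrum, was at 2.98, 2.65 and 3.35 against 4.16, 6.93 and 11.4 CPM (edgeR adjusted p 0.0551), and Ntng2 at 7.58, 9.45 and 9.27 against 11.7, 13.5 and 18.0 CPM (adjusted p 0.0527), both without overlap and highest in library 3. Tfap2d, a factor of the amygdala, was at 0.835, 2.02 and 0.897 against 3.67, 0.793 and 10.2 CPM (adjusted p 0.16), the pattern of Tbr1. Gnb4 showed a log2 fold change of -0.10 (adjusted p 0.696).

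Markers of other regions with excitatory neurons did not pass with all 6 libraries and the main settings. Of 4 tested thalamic genes none passed in edgeR, none had an unadjusted p under 0.05, and DESeq2 called none; Gbx2 was at 1.01, 0.819 and 0.359 against 2.20, 0.370 and 2.71 CPM (edgeR adjusted p 0.264), and Tcf7l2, Rora and Ntng1 had log2 fold changes of 0.35, -0.29 and 0.05. Of 3 tested genes of the hippocampus and cortical hem none passed in edgeR, 1 (Prox1, log2 fold change -0.20) had an unadjusted p under 0.05, and DESeq2 called none. Wnt2b and Zbtb20 had log2 fold changes of -0.34 and 0.05. Of 5 tested genes of Cajal-Retzius neurons, the early neurons of the cortical surface, none passed in edgeR, 1 had an unadjusted p under 0.05 (Cacna2d2, log2 fold change 1.01, adjusted p 0.0533), and DESeq2 called none; Reln was at 101, 89.8 and 56.4 against 64.7, 39.8 and 101 CPM, the groups overlapping. Without Zfhx3-CKO library 2, edgeR called Gbx2 (log2 fold change 1.74, adjusted p 0.0269) and Cacna2d2 (1.24, adjusted p 0.0067) higher as well, 1 of 4 tested thalamic and 1 of 5 tested Cajal-Retzius genes, where 5.11% of all genes were higher. Calb2, Trp73 and Ndnf had log2 fold changes of -0.35, 0.81 and -0.31. Lhx5 and Lhx1 of the Cajal-Retzius list did not pass the filter on low counts. Lhx5 held 0, 1 and 0 counts in the controls and 8, 8 and 14 in the Zfhx3-CKO libraries, and Lhx1 held 4, 1 and 0 against 9, 5 and 0. With no filter on low counts edgeR called 2 of the 7 Cajal-Retzius genes higher, where 3.62% of all genes were higher.

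None of the 7 tested bHLH relatives of the 9 genes passed in edgeR, 1 had an unadjusted p under 0.05, and DESeq2 called none. Nhlh2 was at 0.477, 0.819 and 0.0598 against 0.930, 0.688 and 2.20 CPM (edgeR adjusted p 0.213), and Bhlhe41 and Bhlhe40 had log2 fold changes of -0.42 and 0.22. Among 7 E-protein partners and Id inhibitors, 1 rose: Id1, an inhibitor of bHLH dimers, from 7.76, 6.17 and 9.39 to 13.6, 13 and 15.7 CPM (log2 fold change 0.86, adjusted p 0.0244). Tcf3, an E protein, did not pass (log2 fold change 0.37, adjusted p 0.0591). Id2 and Tcf12 had log2 fold changes of 0.51 and 0.10. Among 6 genes reported as targets of Neurog2 or Tbr1, Rnd2, a small GTPase gene needed for migration, rose from 33.2, 38.2 and 40.3 to 58.4, 45.3 and 53.3 CPM (log2 fold change 0.49, adjusted p 0.0400), with libraries 1 and 3 highest; Dll1, Auts2, Grin2b, Reln and Neurod4 did not pass.

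Of the 10 subpallial genes 1 fell, Gad2 (log2 fold change -0.35, edgeR adjusted p 0.0293), from 536, 580 and 487 to 420, 412 and 423 CPM, at one level in the 3 Zfhx3-CKO libraries. Gsx2 and Dlx6 had log2 fold changes of 0.48 and -0.20, and neither passed. The 6 meningeal genes summed to 17.7 to 22.2 CPM in the controls and to 15.7, 69.5 and 21.2 CPM in Zfhx3-CKO libraries 1, 2 and 3. On this sum library 2, the low one for the 9 genes, was the high one. Foxc1 did not follow the sum, at 4.65, 4.65 and 5.78 CPM in Zfhx3-CKO libraries 1, 2 and 3. Of 4 meningeal genes tested, none passed in edgeR, 1 had an unadjusted p under 0.05 (Foxc1, adjusted p 0.0782), and DESeq2 called none. Col1a1 and Col3a1 stood at 13.4 and 25.2 CPM in Zfhx3-CKO library 2, with log2 fold changes of 1.85 and 0.83 over all 6 libraries, and Col1a2 had 0.39. In the fit without Zfhx3-CKO libraries 1 and 3, Col1a1, Col3a1 and Col1a2 had log2 fold changes of 3.18, 1.95 and 1.26. Foxc1 had 0.71 in that fit, and Dcn and Lum, not tested with all 6 libraries, had 3.78 and 3.43. Choroid plexus genes summed to 1.22 to 6.82 CPM over all 6 libraries (Clic6 and Kl had log2 fold changes of -0.45 and -0.61). The part of neighbouring tissue in the values of the 9 genes was not tested. Neither RLE factors nor library totals changed a direction among the 8 tested genes, and the median of all tested genes lay between -0.0038 and 0.0053 (log2) from the control mean over the 6 libraries.

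Taking 6 pallial lists as 1 set of 53 genes (pallial and intermediate progenitors, both layer lists, glutamatergic and lateral pallial genes), 5 of 48 tested genes were higher and 2 lower with all 6 libraries, where 3.87% and 3.49% of all tested genes were. Without Zfhx3-CKO library 2, 12 were higher and 2 lower, against 5.11% and 3.61% of all genes; among the 7 then called in addition were Fezf2, Hs3st4, Mdga1, Nrn1, Slc17a6 and Tfap2d, with adjusted p of 0.000531 (Slc17a6) to 0.017 (Tfap2d). Without libraries 1 and 3, 7 of 50 were higher and 7 lower, against 4.97% and 4.93%, and the genes just named were in neither set; the higher genes were Emx2, Gadd45g, Insm1, Lhx2, Nr4a2, Nrgn and Pou3f2. Of the 10 genes called in all lists, none was called without control library 1 or without control library 2.

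**Figure D4:**
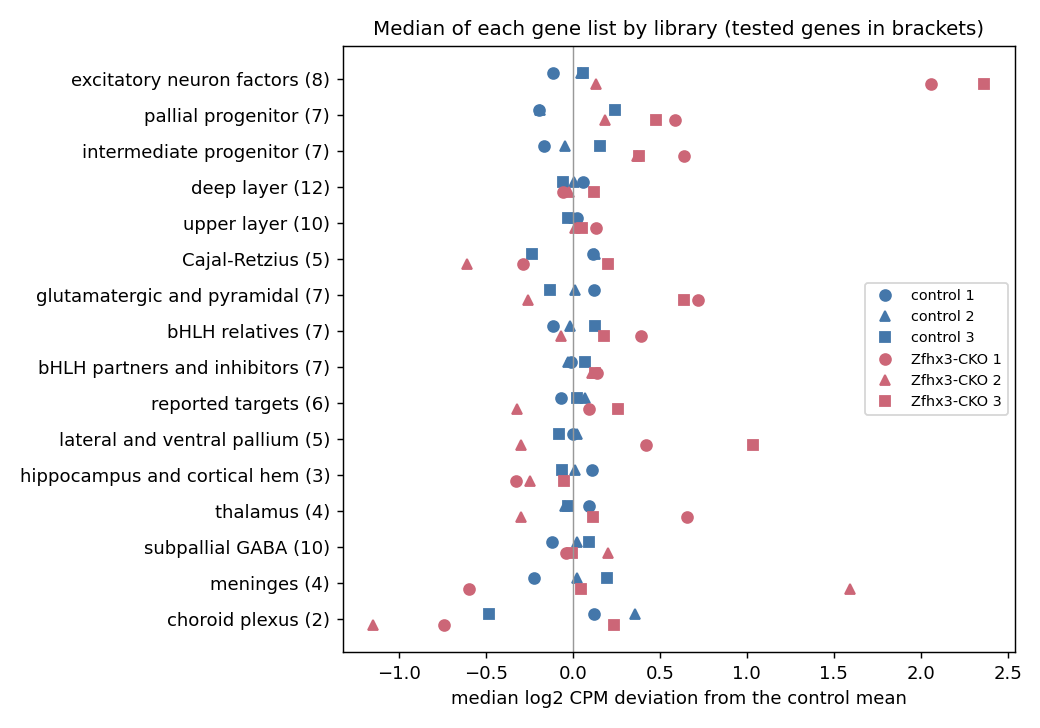
Median deviation of each gene list from the control mean in each library (log2 CPM; tested genes in brackets); circles, triangles and squares are libraries 1, 2 and 3, blue is control and red Zfhx3-CKO. The excitatory neuron factors stand at 2.06 (library 1), 2.37 (library 3) and 0.14 (library 2) in the Zfhx3-CKO group, the subpallial genes between -0.12 and 0.20 in all 6 libraries, and the meningeal genes at 1.59 in library 2.

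Among 12094 named protein-coding genes with a mean of at least 2 CPM, likeness to the median pattern of the 8 tested genes was measured as the root mean square distance of the log2 deviations over the 6 libraries. Among the 10 nearest genes other than the 9 were Dcdc2b (0.189), A3galt2 (0.238), Nrn1 (0.332), Hmgn2 (0.333), Trnp1 (0.338), Tmem158 (0.350), Ndst4 (0.353), Prdm8 (0.376) and Elfn1 (0.407). Neurod6 and Neurod2 themselves lay at 0.264 and 0.289, and Bhlhe22, the farthest of those with a mean of at least 2 CPM, at 0.751. Prdm8 was at 0.537, 1.26 and 1.14 CPM in the controls, against 4.31, 0.899 and 7.83 CPM in the Zfhx3-CKO group, with libraries 1 and 3 high and library 2 within the controls. Hmgn2, a nucleosome-binding protein gene, was at 102, 105 and 112 CPM against 732, 149 and 598 CPM. It has many near-identical pseudogenes between which reads can be split. Its values are therefore uncertain, and the part of such splitting in them was not tested.

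The authors' deposited table gives the 9 genes adjusted p-values under 0.05 for 3 of the 8 that have one (Bhlhe22 0.0248, Neurod1 0.0423 and Neurod2 0.0436), where 6.87% of its genes with an adjusted p were higher at that level, and marks none of the 9 as significant. The log2 fold changes in the authors' deposited table lie between 0.35 (Slc17a7) and 0.62 (Neurod1). The log2 ratios of the authors' mean FPKM in the same deposited table lie between 1.31 (Eomes) and 2.92 (Bhlhe22). The deposited folds are thus smaller than the ratio of the deposited means for all 9 genes, and the table does not say how they were computed.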

How the data were processed

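RNA-seq of 3 control and 3 Zfhx3-CKO libraries, grouped by sample title, was read from 2 deposited tables of 29659 and 3726 genes. Per the submitters' processing notes, edgeR, StringTie, HISAT2 and bcl2fastq (2.17.1.14) were used, and GRCm38.p4 and mm10 are both listed as builds; the role of each tool and build is not stated there. The TruSeq RNA kit is named in the labels' protocols, and strand was treated as unmarked. The deposited counts are whole numbers per gene and the deposited FPKM are scaled for length and depth, per the file headers. Log2 fold changes and p-values from the authors' deposited table were copied unaltered. Columns of the full table were tied to titles by group word and number; all 3726 genes of the shorter table, the 9 described here included, hold the same counts and FPKM under the titles.

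Counts were tested with edgeR 4.0.16 in R 4.3.3 (quasi-likelihood, TMM factors of 0.992 to 1.008, filterByExpr at a minimum count of 10, which kept 16551 genes and left out 13108, group as the only term, Benjamini-Hochberg over all tested genes at 0.05). CPM use the library total times its TMM factor; log2 CPM had a prior count of 2. Alternatives were a replicate block, DESeq2 1.42.0, RLE factors, library totals, no filter, at least 5 CPM in 3 libraries, limma-trend (limma 3.58.1) on log2(FPKM + 1) where 3 libraries reached 1 FPKM, and libraries left out. The fit was also run on simulated data in which the libraries of a group shared their expected levels. Such data do not hold a split like that among the Zfhx3-CKO libraries, and no outcome is given here. Pairs of one group differed beyond sampling noise (chi-square per gene 3.35 to 9.65 among controls and 12.7 to 29.3 among Zfhx3-CKO libraries), so each library counted once. Pairs across groups stood at 27.1 to 37.4, and Zfhx3-CKO libraries 2 and 3, at 29.3, differed over all genes by as much. Totals of 15938590 to 20311799 counts limit genes of a few counts. Named were all 9 genes, from each list every called gene and the 4 with the smallest p, and the 10 genes nearest in pattern; Neurog1, Wnt8b, Dmrt3, Pou3f2, Auts2 and Grin2b were named outside this rule after their values were seen. Some genes that this rule names are not reported here. Lists got no set test. DESeq2 was run without filterByExpr, so its counts for a list can cover more genes than edgeR tested. The genes and lists were chosen with earlier results of these data known.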

Additional observations from a re-analysis of the deposited data

How the results depend on the processing

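Of the 9 genes, 1 (Bhlhe22) was called with the main settings, with RLE factors and with library totals only. With the replicate block 0 were called (7 of 8 at an unadjusted p under 0.05), with the strict filter 0 of the 5 kept (all 5 at an unadjusted p under 0.05), with limma-trend on FPKM 0 of the 5 kept (3 unadjusted), with DESeq2 2, with no low-count filter 7, and without Zfhx3-CKO libraries 1 and 3 together 0 (0 unadjusted). The strict filter and limma-trend leave out 4 of the 9 as too low, Bhlhe22 among them. Leaving out single libraries gave 0 to 8 called, the 8 without Zfhx3-CKO library 2. The median log2 fold change of the tested genes was 1.53, ran from 1.36 to 1.95 with single libraries left out, and was 0.11 without Zfhx3-CKO libraries 1 and 3, where Tbr1 changed sign (-0.48, adjusted p 0.325); in no other fit did any of the 8 change sign.

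Of the list genes 10 were called with the main settings, 1 with the replicate block, 18 with DESeq2, 29 with no low-count filter, 6 with limma-trend on FPKM, 26 without Zfhx3-CKO libraries 1 and 3, and 0 to 25 with single libraries left out (0 without control library 1 or 2, where 22 and 23 had an unadjusted p under 0.05). Replicate numbers were checked for pairing, which the block assumes. Same-numbered libraries had deviations from their group means that correlated at -0.0939, -0.121 and -0.377 over 13132 genes. No library correlated best with its own number. Emx1, Neurod1, Bhlhe22 and Slc17a7 rest on 2 to 284 counts per library, so the depth limits their values most. The cause of these changes was not tested.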
